A study of Bos taurus with 11 samples.

Results

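Parenchyma of the heifer mammary gland, the region that holds the ducts, was compared with close stroma, the stromal region that the labels name as near to it without giving a distance. The comparison held 7 of the 11 samples of the series, which were chosen by their labels: parenchyma of heifers 1, 3, 4 and 5 (n = 4) and close stroma of heifers 3, 4 and 5 (n = 3). All 14361 genes with a mean normalised count of 10 or more in either region were tested, of 16279 in the table. Every sample came from an untreated Holstein heifer aged 10 to 12 months, and messenger RNA was selected by its poly A tail. The remaining region, far stroma of heifers 1, 3, 4 and 5 (n = 4), helped to estimate the spread between animals and served as a fat-rich reference. The number in a label names the animal, so heifers 3, 4 and 5 gave a pair each. The column of close stroma of heifer 4 ends in a letter that the labels do not explain, and counts without that sample are given below. Libraries of parenchyma and close stroma held 8965465 to 11156909 recovered reads.

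Before puberty and around it, mammary ducts grow as a branching epithelium into a pad of fat and connective tissue. The ducts have an inner luminal layer, marked by keratins 8 and 18, and an outer basal or myoepithelial layer, marked by keratins 5 and 14 and by TP63. Adipocytes of the pad store triglyceride in droplets coated by perilipins, take up and release fatty acids, and secrete leptin and adiponectin. Fibroblasts, blood and lymph vessels, nerves and immune cells lie in both regions, so a tissue sample is a blend of cell types. In such bulk samples, fewer cells of a type and less RNA per cell cannot be told apart.

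Both regions contained epithelial RNA, and close stroma contained far more adipocyte RNA. Below, parenchyma values are in the order of heifers 1, 3, 4 and 5 and close stroma values in the order of heifers 3, 4 and 5, in normalised counts. Perilipin 1 (PLIN1, ENSBTAG00000015350), a coat protein of lipid droplets, stood at 185, 159, 173 and 177 in parenchyma and at 40463, 9847 and 17740 in close stroma. Adiponectin (ADIPOQ, ENSBTAG00000052213) stood at 67.1, 48.8, 46.4 and 35.7 against 9496, 2505 and 6272. For both genes the close stroma of heifer 3 was highest and that of heifer 4 lowest, and no parenchyma sample came near them. Keratin 8 (KRT8, ENSBTAG00000000836) stood at 2874, 3257, 3746 and 3462 in parenchyma and at 1429.5, 2490.1 and 1896 in close stroma, against 3.60 to 15.8 in far stroma. The basal cell regulator TP63 (ENSBTAG00000015460) stood at 388, 356, 272 and 314 against 68.1, 297 and 307, with a value of 0 in each far stroma sample. The keratin 8 values of parenchyma and close stroma did not overlap, while those of TP63 did.

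As a mean of log2(value + 1) over 17 adipocyte genes, the adipocyte level was 6.67 to 7.15 in parenchyma. Close stroma of heifer 3 had 13.13, that of heifer 4 10.96 and that of heifer 5 12.04. In far stroma it was 13.17 to 13.67, so the close stroma of heifer 3 lay just under the fat-rich region. The luminal level, the same mean over 22 luminal epithelium genes, was 10.54 to 10.73 in parenchyma, 9.24, 10.42 and 10.09 in close stroma, and 3.31 to 3.47 in far stroma. Among the close stroma samples, that of heifer 3 was the highest in adipocyte RNA and the lowest in luminal RNA, and that of heifer 4 the reverse. The adipocyte genes took 0.0606 to 0.0811% of the reads of a parenchyma library and 2.93%, 0.906% and 1.75% of those of close stroma.

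**Figure D1:**
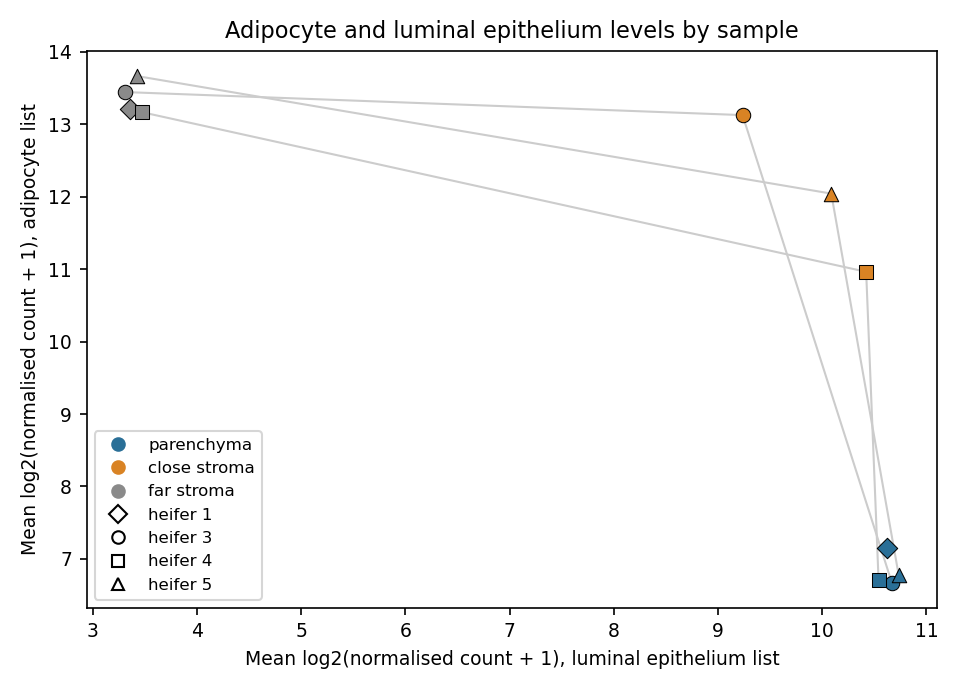
Mean log2(normalised count + 1) of the luminal epithelium list (x axis) and of the adipocyte list (y axis) in each of the 11 samples, by region (colour) and heifer (symbol), with grey lines joining the samples of heifers 3, 4 and 5. Parenchyma sits at a luminal level of 10.54 to 10.73 and an adipocyte level of 6.67 to 7.15, while close stroma lies at luminal levels of 9.24 to 10.42 and adipocyte levels of 10.96 to 13.13.

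By limma with Benjamini-Hochberg adjustment over all genes tested, 296 genes were higher in parenchyma (2.06% of those tested) and 725 were lower (5.05%), at an adjusted p under 0.05. Of these, 166 and 610 differed at least 2-fold on the log2(value + 1) scale, and 2 and 60 at least 16-fold. The median log2 difference of parenchyma minus close stroma was 1.06 among the higher genes, -1.70 among the lower genes and 0.04 over all genes tested. All 725 lower genes and 295 of the 296 higher genes had the same sign in 3 of 3 heifers with both regions. The genes were called from these same samples, so that agreement in sign follows largely from the selection. With the heifer as a block, 501 genes were higher and 937 lower, of which 244 and 675 were also called without it. Counts depended on single samples: without the close stroma of heifer 3 there were 52 higher and 322 lower, and without that of heifer 5 there were 99 and 480. Without the close stroma of heifer 4 they were 337 and 889, and without the parenchyma of heifer 1, 3, 4 or 5 they were 166 and 613, 105 and 477, 113 and 468, and 147 and 563. In 13% of the genes tested every parenchyma sample lay above every close stroma sample, and in 13.3% every one lay below. At an unadjusted p under 0.05 there were 3408 of the 14361 genes, in either direction. The counts within gene lists below are to be read against the shares of all genes, 2.06% called higher and 5.05% called lower.

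**Figure D2:**
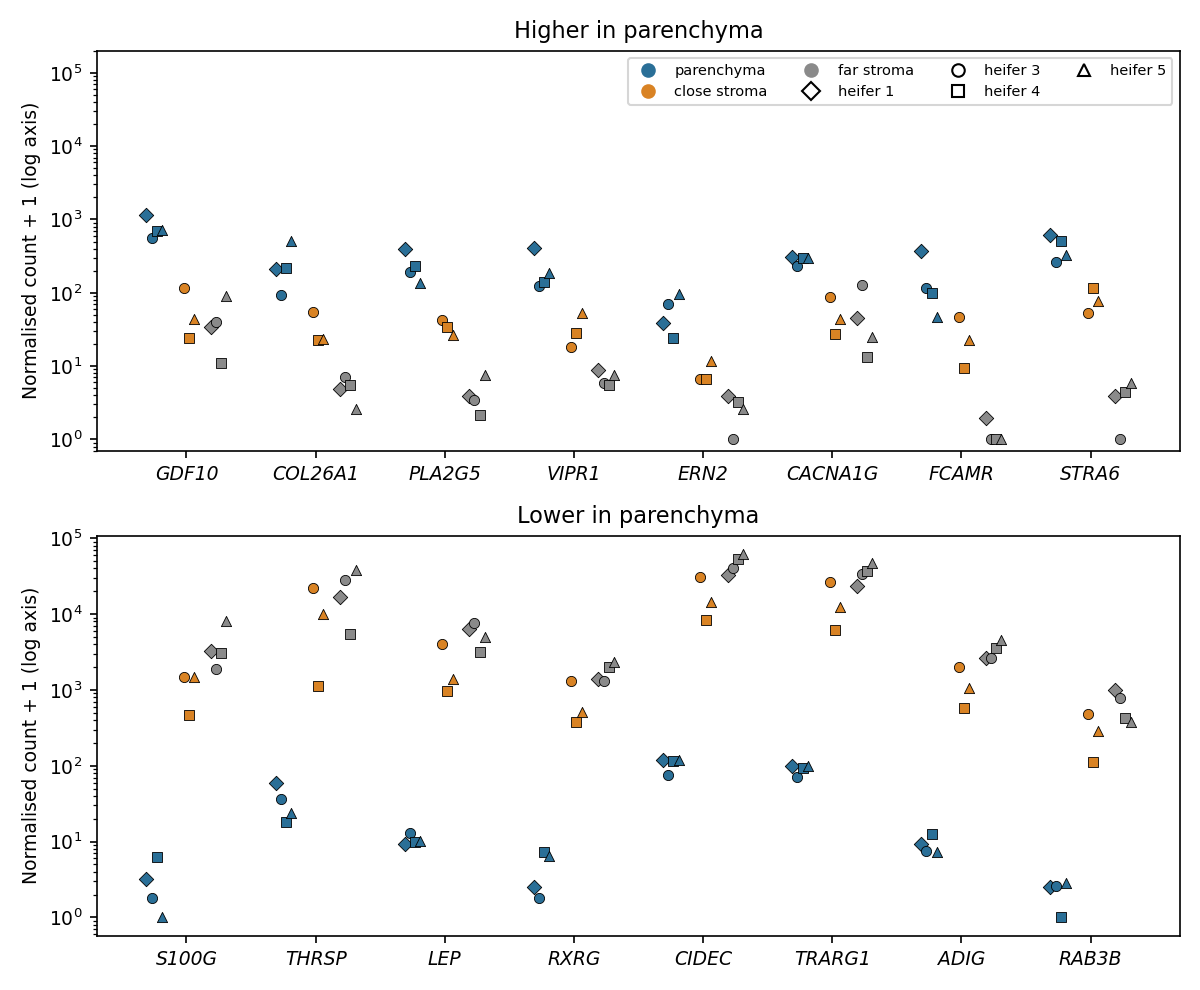
Normalised counts plus 1 on a log axis of the 8 genes with the largest rise and the 8 with the largest fall in parenchyma against close stroma by the rule for named genes, with 1 point per sample coloured by region and shaped by heifer. The rule took only genes whose parenchyma and close stroma samples do not overlap. GDF10 spans 563 to 1139 in parenchyma against 23.4 to 114 in close stroma.

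Several of the genes lowest in parenchyma are known from fat cells. S100G, the first below, is not in the adipocyte list, and its cell source was not tested. S100G (ENSBTAG00000017020), a calcium-binding protein, stood at 2.26, 0.810, 5.35 and 0 in parenchyma and at 1481, 472 and 1492 in close stroma (log2 difference -8.68 ± 0.63 SE, limma adjusted p = 6.89e-06). THRSP (ENSBTAG00000011666), a regulator of lipid synthesis, stood at 58.1, 35.0, 16.9 and 22.9 against 21956, 1135 and 10085 (-7.68 ± 0.87). Leptin (LEP, ENSBTAG00000014911), the hormone that signals fat stores, stood at 8.29, 12.2, 8.91 and 9.16 against 3999, 965 and 1410.1 (-7.38 ± 0.41). Even the lowest close stroma sample of each gene, that of heifer 4, lay far above the highest parenchyma sample. The retinoid receptor RXRG (-7.37 ± 0.52), the droplet protein CIDEC (-7.19 ± 0.37), the glucose transporter regulator TRARG1 (-7.13 ± 0.39), the adipogenic factor ADIG (-6.90 ± 0.36) and the vesicle protein RAB3B (-6.90 ± 0.53) followed. RAB3B stood at 1.51, 1.63, 0 and 1.83 in parenchyma, and like S100G its difference rests on few parenchyma reads.

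All 17 adipocyte genes tested fell in parenchyma, with a median log2 difference of -5.93 and a range from -7.68 for THRSP to -1.55 for SLC2A4, the insulin-responsive glucose transporter. The hormone-sensitive lipase LIPE (-6.53 ± 0.36) and the fatty acid carrier FABP4 (-5.93 ± 0.40) had larger differences than PPARG (-2.69 ± 0.32), the main regulator of adipocyte differentiation, and lipoprotein lipase LPL (-2.75 ± 0.46). Among 15 synthesis genes for fatty acids and triglycerides, 8 fell and none rose (median -1.92), and 6 fell without the close stroma of heifer 3. PCK1, which supplies the glycerol backbone, stood at 15.8, 3.25, 11.6 and 10.99 against 1614, 365 and 1039 (-6.38 ± 0.53). GPD1, an enzyme of glycerol 3-phosphate synthesis (-4.66 ± 0.44), the desaturase SCD (-4.37 ± 0.76), the acyltransferase AGPAT2 (-3.48 ± 0.50) and malic enzyme ME1 (-3.08 ± 0.37) also fell. Fatty acid synthase FASN stood at 19448, 7832, 7824 and 6758 against 84093, 9547 and 16623 (-1.32 ± 0.68, adjusted p = 0.259), with the parenchyma of heifer 1 above the close stroma of heifers 4 and 5. ACLY, which makes cytosolic acetyl-CoA, had a difference of 0.18 ± 0.22. With the heifer as a block the elongase ELOVL5 (adjusted p = 0.0166) and ACACA (0.0172), the carboxylase that makes malonyl-CoA, were called lower too. Among 14 genes of fat cell progenitors ZNF423, a factor of adipose commitment, was the 1 called, and it was lower in parenchyma (-1.22 ± 0.24, adjusted p = 0.00832). Over all genes, 5.05% were called lower. DLK1, which marks preadipocytes, stood at 3399.9, 1638, 3100.3 and 4065 against 742, 196 and 687 without passing (2.64 ± 1.07, adjusted p = 0.156). EBF1, a factor of adipocyte and B cell differentiation, was lower with the heifer as a block (adjusted p = 0.00796).

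Of 17 blood endothelium genes, 9 fell and none rose, with a median of -0.97, and 4 fell without the close stroma of heifer 3. PECAM1 (ENSBTAG00000012066), an adhesion molecule of endothelial junctions, stood at 1247, 1051, 977 and 1071 against 3450.5, 2669 and 1611 (-1.18 ± 0.22, adjusted p = 0.00687). The angiopoietin receptor TEK stood at 255, 225, 178 and 209.7 against 1276, 659 and 767 (-2.0004 ± 0.27), and the VEGF receptor FLT1 at 327, 230.1, 198 and 223 against 633, 444 and 465 (-1.08 ± 0.19). The regions did not overlap in PECAM1, TEK or FLT1. The VEGF receptor KDR had a difference of -0.56 ± 0.19 that did not pass (adjusted p = 0.101). Of 8 lymphatic genes, LYVE1 (-1.46 ± 0.39) and MMRN1 (-1.12 ± 0.23) fell, and the lymphatic regulator PROX1 did not pass (-0.24 ± 0.76). The call of LYVE1 was lost without any 1 of the 7 samples, at adjusted p = 0.0614 to 0.13. CCL21, the chemokine with which lymph vessels attract lymphocytes, was higher in parenchyma with the heifer as a block (0.88 ± 0.33 without it, adjusted p = 0.0235 with it). Of 13 smooth muscle and pericyte genes, MCAM, an adhesion molecule of vessel walls, stood at 487, 284, 434 and 332 against 18663, 5771 and 12490 (-4.87 ± 0.33). MCAM followed the order of the adipocyte level over the close stroma samples. ABCC9, a potassium channel subunit, also fell (-1.53 ± 0.42), a call lost without the parenchyma of heifer 3, 4 or 5 or the close stroma of heifer 3 or 5 (adjusted p = 0.0892 to 0.229). The contractile genes ACTA2 (0.59 ± 0.33) and MYH11 (0.68 ± 0.35) did not pass.

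Among 21 paracrine growth factors, 3 fell and none rose, against a list median of 0.02. FGF1 (ENSBTAG00000005198) stood at 86.0, 56.9, 76.7 and 70.5 against 1138, 310.3 and 779.8 (-3.16 ± 0.41, adjusted p = 0.000668). FGF2 stood at 241, 298, 318 and 226 against 1028, 616 and 1089 (-1.72 ± 0.22), and BMP2 at 36.2, 39.8, 35.7 and 46.7 against 185, 125 and 113 (-1.78 ± 0.25). All 3 held when any 1 sample was left out. FGF10, a fibroblast signal to epithelium, stood at 357, 290.3, 262 and 422 against 307, 222 and 519.8 (-0.01 ± 0.30), and IGF1, a local growth factor downstream of growth hormone, at 179, 124, 81.1 and 145 against 143, 114 and 119.5 (0.02 ± 0.64). The growth hormone receptor GHR stood at 795, 618, 772 and 896 against 3744, 1279.8 and 2172 (-1.51 ± 0.31). Among 16 hormone receptors and responsive genes it was the 1 called, where 5.05% of all genes were called lower. Its call was lost without the close stroma of heifer 3 (adjusted p = 0.0541). The oestrogen receptor ESR1 stood at 519, 1011, 514 and 696 against 544, 685 and 588 (0.13 ± 0.54), and the progesterone receptor PGR at 230.0, 116, 188 and 389 against 46.0, 300.01 and 292 (0.40 ± 0.63). Both receptors overlapped between the regions, and PGR was lowest in the close stroma of heifer 3.

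Of 32 WNT and Notch genes, 4 fell and none rose: the WNT and norrin receptor FZD4 (-2.13 ± 0.46), the endothelial Notch ligand DLL4 (-1.31 ± 0.26), the endothelial receptor NOTCH4 (-0.81 ± 0.22, adjusted p = 0.0421, and 0.0714 with the heifer as a block) and the ligand JAG1 (-0.71 ± 0.19). None of the 4 was called without the close stroma of heifer 3, where FZD4 had an adjusted p of 0.09 and DLL4 of 0.0611. The call of JAG1 was lost in 6 of the 7 fits that left out a sample, with the close stroma of heifer 4 the exception (adjusted p = 0.0543 to 0.192). In the blocked fit, the WNT antagonists DKK2 (adjusted p = 0.0295) and DKK3 (0.0445) were also called lower and the ligand WNT6 (0.0311) higher. WNT2, a stromal ligand, stood at 79.2, 56.1, 40.1 and 80.6 against 23.0, 13.1 and 13.6 and did not pass (1.88 ± 0.53, adjusted p = 0.0532). None of the 9 IGF binding protein genes was called by limma, with 1 higher and 3 lower at an unadjusted p under 0.05, 0 and 1 by edgeR, and 1 and 3 by DESeq2. Over all genes, 3408 of 14361 had an unadjusted p under 0.05 by limma. With the heifer as a block, IGFBP5, at 906, 459, 351 and 898 against 3679.6, 653 and 1620.2, was called lower (adjusted p = 0.0242).

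Immediate early genes, which respond fast to growth factors, stress and handling, had a median of -1.23. Of 20 genes, 6 fell and none rose, 14 did not pass, and 4 fell without the close stroma of heifer 3. DUSP1, a phosphatase that ends MAP kinase signals, stood at 1642, 1279.7, 1487 and 1102 against 10785, 7026 and 3003 (-2.16 ± 0.39, adjusted p = 0.00557). The transcription factors KLF4 (-1.94 ± 0.29), KLF2 (-1.65 ± 0.30) and KLF6 (-1.16 ± 0.21), the RNA-decay factor ZFP36 (-1.57 ± 0.34) and the matrix protein CYR61 (-2.03 ± 0.45) also fell. In the blocked fit 12 of the 20 fell, FOS and FOSB among them (adjusted p = 0.00143 and 0.000342). The close stroma of heifer 5 was the lowest of the 3 for DUSP1 and KLF4, an order that differs from that of the adipocyte level. How long each tissue lay before storage is not in the labels, and its part in these values was not tested.

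Smaller numbers of genes of other stromal cells fell. Of 10 nerve and Schwann cell genes, 4 fell (median -1.14), and 1 of them was still called without the close stroma of heifer 3. That gene, the calcium-binding protein S100B, which adipocytes also express, stood at 554, 939, 1107 and 674 against 3290.4, 1932 and 1799.5 (-1.51 ± 0.27, adjusted p = 0.00538), with no overlap between the regions. It was called without any 1 sample. The mast cell protease CPA3 (14.3, 17.1, 14.3 and 23.8 against 127, 41.2 and 159) and GATA2, a factor of mast cells and endothelium (-1.04 ± 0.26), fell among 8 mast cell and granulocyte genes (median -0.86). GATA2 lost its call in 6 of 7 fits that left out a sample, with the parenchyma of heifer 1 the exception (adjusted p = 0.0528 to 0.164).

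Among 13 basement membrane genes (median -0.15), the collagen IV chains COL4A1 (-1.62 ± 0.42) and COL4A2 (-1.69 ± 0.39) and the laminin chain LAMB2 (-1.07 ± 0.29) fell, and agrin (AGRN), a proteoglycan, rose. AGRN stood at 2695, 2397, 2565 and 4069 against 996, 1598 and 1744 (1.03 ± 0.24, adjusted p = 0.0246). LAMB2 was not called with the heifer as a block (adjusted p = 0.0622). None of the 4 was called without the close stroma of heifer 3, and without the parenchyma of heifer 5 the calls of AGRN, COL4A1 and COL4A2 were lost too (AGRN at adjusted p = 0.0593 and 0.128). The collagen IV calls were also lost without the parenchyma of heifer 3 or 4, and that of COL4A1 without the close stroma of heifer 5 (adjusted p = 0.0549 to 0.158). Among 21 genes of fibroblasts and fibrillar collagen (median 0.13), the intermediate filament VIM (-1.69 ± 0.31) and the collagen cross-linking enzyme LOX (-2.39 ± 0.51) fell, against 5.05% called lower over all genes. LOX lost its call without the close stroma of heifer 3 (adjusted p = 0.0724). COL1A1 stood at 52814, 14947, 16312 and 49427 against 67400, 9257 and 11544 (0.55 ± 0.69, adjusted p = 0.673). The highest COL1A1 value was in the close stroma of heifer 3 and the lowest in that of heifer 4.

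**Figure D3:**
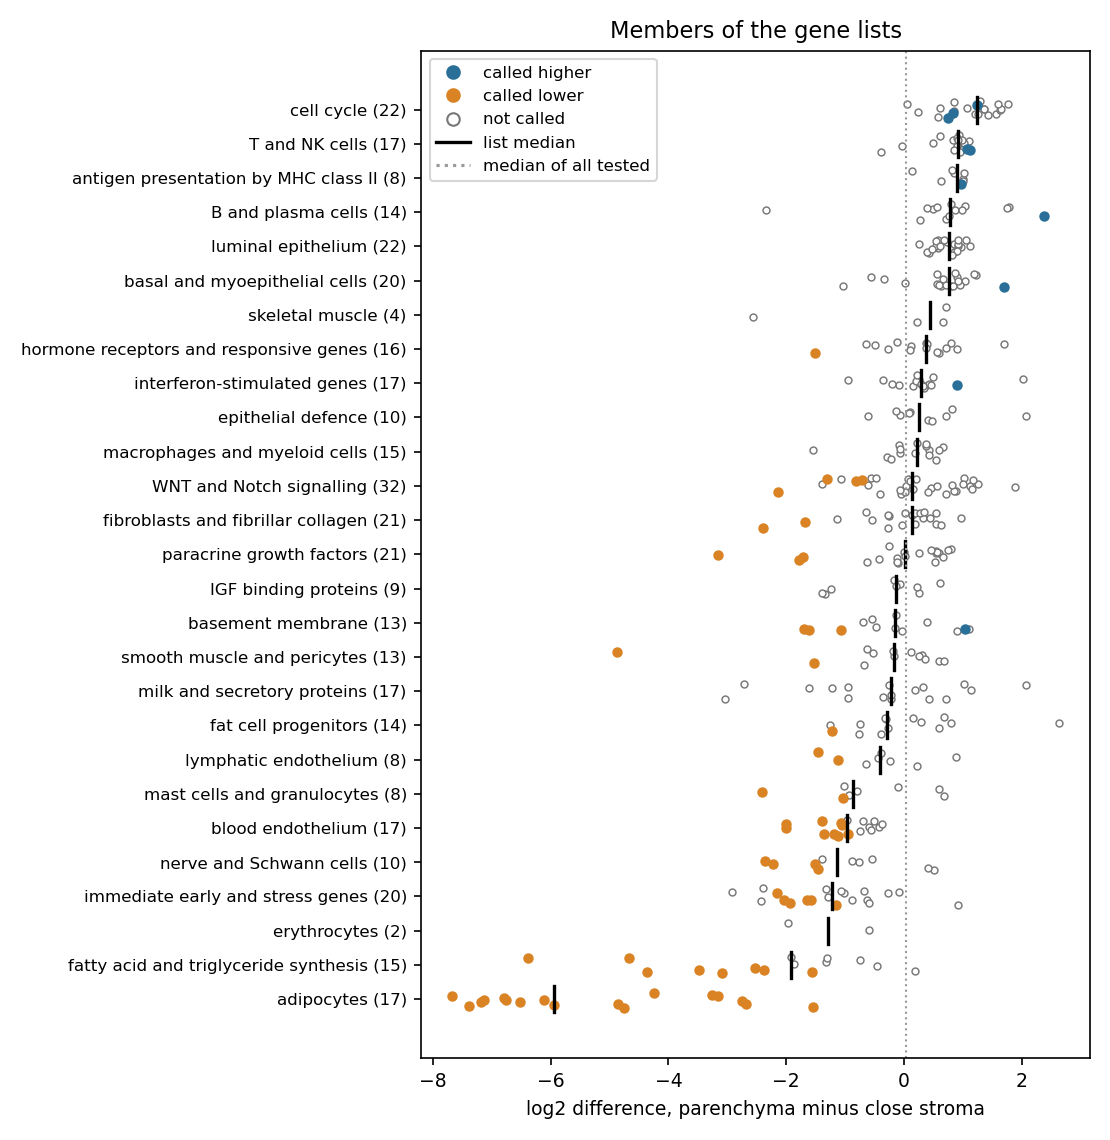
Log2 difference of parenchyma minus close stroma for each tested member of the 27 gene lists (1 point per gene, filled where called by limma at an adjusted p under 0.05), with the list median as a black bar, the number tested in brackets and the median of all genes as a dotted line. The adipocyte list has the lowest median, -5.93, and the cell cycle list the highest, 1.25.

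Genes higher in parenchyma had smaller differences. Under the rule for named genes, the largest rise was that of GDF10 (ENSBTAG00000001019), a secreted member of the TGF-beta family also called BMP3B. It stood at 1139, 563, 694 and 708 in parenchyma and at 114, 23.4 and 43.5 in close stroma (3.91 ± 0.62, adjusted p = 0.00269), and at 10.2 to 90.3 in far stroma. COL26A1, a collagen, stood at 211, 93.5, 219 and 515 against 53.7, 21.6 and 22.6 (2.83 ± 0.54). The secreted phospholipase PLA2G5 stood at 395, 190.2, 228 and 135 against 41.2, 32.8 and 25.4 (2.72 ± 0.45), and VIPR1, a receptor of vasoactive intestinal peptide, at 412, 122, 139.9 and 187 against 17.3, 27.2 and 52.5 (2.66 ± 0.46). In each of these 4 genes the call held when any 1 sample was left out. That the regions did not overlap was a condition of the rule for named genes.

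The other 4 were closer to the threshold. ERN2, a sensor of unfolded proteins in secretory epithelia, stood at 37.7, 68.3, 23.2 and 96.1 against 5.75, 5.63 and 10.9 (2.63 ± 0.59). CACNA1G, a T-type calcium channel, stood at 308, 231, 296 and 294 against 86.3, 26.2 and 43.5 (2.57 ± 0.61). FCAMR, a receptor for IgM and IgA, stood at 376, 114, 98.0 and 45.8 against 45.1, 8.44 and 21.7 (2.47 ± 0.68), so that the lowest parenchyma and the highest close stroma sample almost met. STRA6, the receptor that takes up retinol from its plasma carrier, stood at 622, 265, 509 and 328 against 52.7, 115 and 75.2 (2.39 ± 0.55). Leaving out a sample ended the call of ERN2 for the parenchyma of heifer 3 or 5 and the close stroma of heifer 3, and that of STRA6 for the parenchyma of heifer 1 or 4 and the close stroma of heifer 3 or 5. It ended the call of CACNA1G in 5 of 7 cases (all but the parenchyma and the close stroma of heifer 3) and of FCAMR in 6 (all but the parenchyma of heifer 5), with adjusted p over the 4 genes at 0.0531 to 0.13. FCAMR also lost its call in the fit of parenchyma and close stroma alone (adjusted p = 0.0553).

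The gene with the largest rise of all was ENSBTAG00000047815, which has no symbol in the table and is named after its values were seen, at 3711, 2364, 1420 and 4365 against 98.8, 222 and 58.0 (4.63 ± 0.51, adjusted p = 0.00019). MUCL1, a small mucin-like protein of glands, stood at 328, 37.4, 422 and 114 against 0.960, 63.8 and 4.53, so that the close stroma of heifer 4 lay above the parenchyma of heifer 3. Its rise of 4.15 ± 1.04 (adjusted p = 0.0319) was not called by edgeR or DESeq2. The call was also lost without the parenchyma of heifer 1, 4 or 5 or the close stroma of heifer 3 or 5 (adjusted p = 0.0601 to 0.165).

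Epithelial genes had positive medians, but few passed the test. Of 22 luminal genes none was called by limma, and the median was 0.77, with members between 0.26 and 1.13. At an unadjusted p under 0.05, 4 luminal genes were higher and 0 lower, against 3408 of all 14361 genes in either direction. By edgeR 0 (TMM scaling) or 1 (RLE scaling) were called, by DESeq2 3, and in the paired samples with the heifer as a block 6. EPCAM, an adhesion molecule of epithelia, stood at 1661, 1824, 2482 and 2021 against 776, 2634 and 1669 (0.39 ± 0.38), and the close stroma of heifer 4 was its highest sample. The luminal factors ELF5 (0.96 ± 0.72) and GATA3 (0.85 ± 0.32) and the keratin KRT18 (0.90 ± 0.52) did not pass. Of 20 basal and myoepithelial genes the median was 0.76 and 1 was called higher, against 2.06% of all genes. That gene, the neurotrophin receptor NGFR (ENSBTAG00000020979), stood at 2010.2, 1965, 2466 and 2759 against 664, 723 and 709 (1.70 ± 0.39, adjusted p = 0.021). Its close stroma samples were nearly level, while the luminal level of the same samples was not. The call of NGFR was lost without the parenchyma of heifer 4 or 5 or the close stroma of heifer 3 or 5 (adjusted p = 0.0577 to 0.0903). The basal keratins KRT5 (0.67 ± 0.35) and KRT14 (1.04 ± 0.42) did not pass, and LAMB3, a laminin chain, passed with the heifer as a block (adjusted p = 0.0379).

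Lymphocyte genes also had positive medians. Among 17 T and NK cell genes the median was 0.92, and in 14 of them every parenchyma sample lay above every close stroma sample, against 13% of all genes. CD3E (ENSBTAG00000015710), part of the T cell receptor complex, stood at 1795, 2331, 2098 and 1825 against 900.3, 1069.7 and 995 (1.02 ± 0.38, adjusted p = 0.129). The kinase ZAP70, which relays the receptor's signal, stood at 677, 995, 952 and 683 against 293, 437 and 445 (1.08 ± 0.21, adjusted p = 0.00785), and the co-receptor CD4 at 277, 376, 209 and 281 against 155, 128 and 106 (1.12 ± 0.30, adjusted p = 0.042). These 2 were the called members, and the call of CD4 was lost without any 1 sample (adjusted p = 0.0506 to 0.144). Of the 17, edgeR and the fit with the heifer as a block each called 2, DESeq2 7, and the 6 paired samples with a block 13, while limma called 1 without the close stroma of heifer 3.

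Of 14 B and plasma cell genes the median was 0.78, and MZB1, a chaperone of antibody-secreting cells, was called, at 95.01, 133, 111 and 188 against 31.6, 15.9 and 26.3 (2.38 ± 0.53). The call of MZB1 was lost without the parenchyma of heifer 3 or 5 or any 1 close stroma sample (adjusted p = 0.0508 to 0.0569). The joining chain of polymeric antibodies, JCHAIN, stood at 1704, 1973, 2241 and 3445 against 384, 655 and 1195 (1.75 ± 0.53, adjusted p = 0.067). CR2, the complement receptor of follicular B cells, stood lower in every parenchyma sample, at 28.6, 31.7, 10.7 and 61.3 against 356, 66.6 and 133, and did not pass (adjusted p = 0.0525, and 0.0362 with the heifer as a block). Of 8 genes of MHC class II antigen presentation the median was 0.90, and the class II regulator CIITA was called (0.96 ± 0.25, adjusted p = 0.0394). CIITA was not called with the heifer as a block (adjusted p = 0.0693) or in 6 of 7 fits that left out a sample, with the close stroma of heifer 4 the exception (adjusted p = 0.0561 to 0.195).

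Macrophage and interferon lists had medians nearer to that of all genes. Of 15 macrophage and myeloid genes limma called none (median 0.22), 0 were higher and 1 lower at an unadjusted p under 0.05, and edgeR and DESeq2 called 1 lower. That gene, the scavenger receptor CD163 of resident macrophages, stood at 101, 142, 63.3 and 113 against 538, 134 and 361 (-1.55 ± 0.50, adjusted p = 0.0839). The receptor CSF1R of macrophage growth factor had a difference of 0.66 ± 0.39. Of 17 interferon-stimulated genes the median was 0.29, and the interferon regulator IRF7 was called (0.90 ± 0.23, adjusted p = 0.0316), against 2.06% called higher over all genes. The call of IRF7 held without the parenchyma of heifer 1 or the close stroma of heifer 4 and was lost without any other 1 sample (adjusted p = 0.0792 to 0.129). The chemokine CXCL10 stood at 857, 655, 486 and 318 against 87.2, 136 and 197, with no overlap, and did not pass (2.02 ± 0.71, adjusted p = 0.108). RSAD2 of the same list went the other way without overlap, at 129, 91.9, 93.6 and 71.4 against 264, 143 and 163. It did not pass by limma (-0.95 ± 0.31, adjusted p = 0.09) but did with the heifer as a block (0.0385). Of the 17 genes, 3 were higher and 3 lower in 3 of 3 heifers, and DESeq2 called 2 higher and 1 lower. Of 4 skeletal muscle genes (median 0.44) limma called none, and myoglobin (MB), at 0 to 2.44 against 25.9, 9.38 and 3.62, was lower at an unadjusted p under 0.05 and was called by edgeR and DESeq2. Of 2 haemoglobin genes (median -1.29) none was called by limma, edgeR or DESeq2 or had an unadjusted p under 0.05. The muscle kinase CKM stood at 0 to 7.25 in the 7 samples.

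Cell cycle genes had the highest median of the 27 lists, 1.25 over 22 genes, and all 22 had positive differences. The mitotic kinase PLK1 (ENSBTAG00000014453) stood at 182, 204, 162 and 175 against 68.1, 70.3 and 91.5 (1.24 ± 0.20, adjusted p = 0.00296) and was called without any 1 sample. MCM3 (0.75 ± 0.16) and MCM2 (0.83 ± 0.21), subunits of the replicative helicase, were also called. MKI67, the marker of cycling cells, stood at 800.0, 717, 265 and 266 against 155, 111 and 130.4 (1.77 ± 0.61, adjusted p = 0.0998). Its parenchyma was higher in heifers 1 and 3 than in heifers 4 and 5, and all 4 samples lay above close stroma. With the heifer as a block MKI67 was called (adjusted p = 0.023), as were 7 of the 22 genes in all, and DESeq2 called 14. Without the close stroma of heifer 3 the calls of MCM3 and MCM2 were lost, and that of MCM2 also without any other 1 sample but the parenchyma of heifer 5 (adjusted p = 0.052 to 0.13). In the 6 paired samples with a block MCM2 did not pass either (adjusted p = 0.0537).

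Transcripts of milk proteins ranged widely between animals within each region. Beta-casein (CSN2, ENSBTAG00000002632) stood at 99143, 5476, 126 and 109 in parenchyma against 5598, 96.6 and 60926 in close stroma, in the same heifer order as above. In heifers 3 and 4 close stroma was at 1.02 and 0.768 times parenchyma, while in heifer 5 it was 559 times as high. The same close stroma sample held 30758 of alpha-s1-casein (CSN1S1) against 44.9 in its parenchyma and 21201 of beta-lactoglobulin (PAEP) against 233. It also held 11550 of alpha-s2-casein (CSN1S2) against 1.83 and 6434 of alpha-lactalbumin (LALBA) against 4.58, where the parenchyma values rest on a few reads. Kappa-casein (CSN3) had a narrower range, at 46779, 8063, 8598 and 2260.4 against 5274, 4442 and 17143. Of 17 milk and secretory genes (median -0.22) none was called by limma or DESeq2, 1 was higher at an unadjusted p under 0.05, and edgeR called 1. That gene was PIGR (ENSBTAG00000019798), the epithelial carrier of IgA, at 9529, 3992, 2376 and 6532 against 1675, 528 and 1829 (2.07 ± 0.66, adjusted p = 0.0798, and 0.00827 with the heifer as a block). The iron-binding milk protein lactoferrin (LTF) stood at 15880, 66911, 40136 and 68269 against 14172, 41693 and 27159 (0.71 ± 0.47). Of the 10 epithelial defence genes tested, which include PIGR and LTF (median 0.26), limma and DESeq2 called none, and PIGR was the 1 with an unadjusted p under 0.05 and the 1 called by edgeR.

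**Figure D4:**
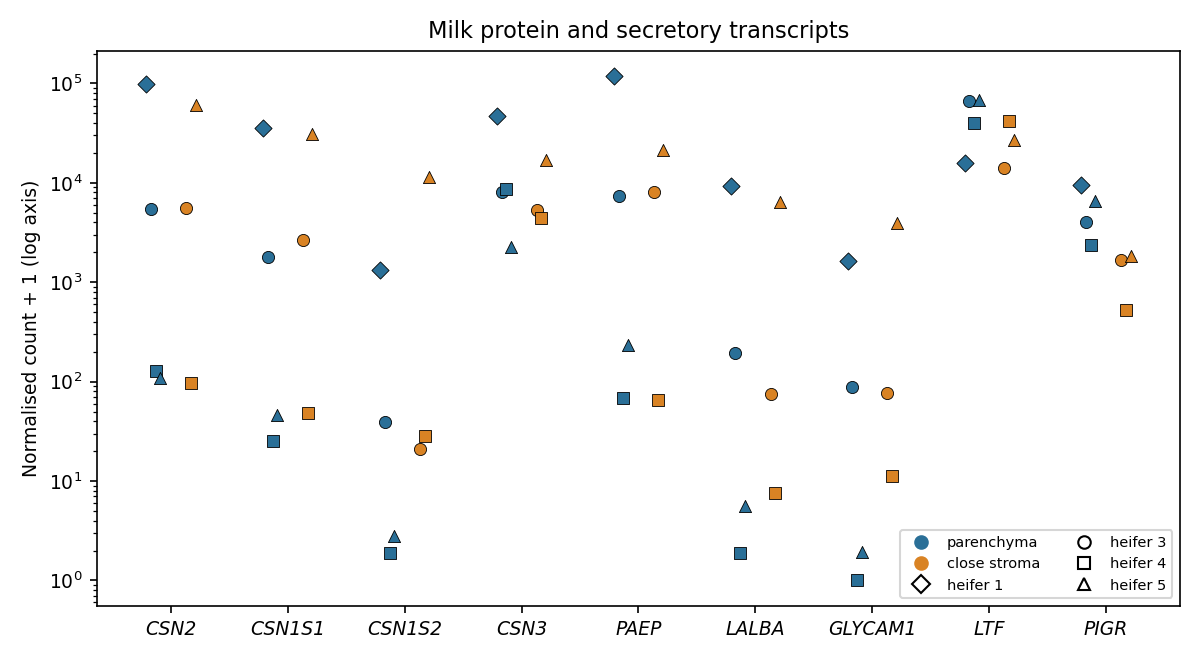
Normalised counts plus 1 on a log axis of 9 milk protein and secretory genes in the 4 parenchyma and 3 close stroma samples, coloured by region with a symbol for each heifer. In CSN2, CSN1S1, CSN1S2, PAEP, LALBA and GLYCAM1 the close stroma of heifer 5 lies far above the parenchyma of the same animal, as for CSN2 at 60926 against 109.

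To separate adipocyte content from other differences, the close stroma of heifers 3, 4 and 5 was set against a computed mix of the parenchyma and far stroma of the same animal, in CPM (read counts scaled to each library's total). The share of far stroma in the mix was the median over the 17 adipocyte genes of where close stroma lay between the other regions. It came to 89.7% in heifer 3 (quartiles over genes 84.4 and 102%), 28.9% in heifer 4 (23.5 and 35.6%) and 41.4% in heifer 5 (34.3 and 53.3%). A share set by the luminal genes instead was 72.4%, 9.12% and 44.3%, which is lower in heifers 3 and 4 and slightly higher in heifer 5. The mix and the comparison of regions share the parenchyma and close stroma samples, so their results are not independent of each other.

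The genes called between the regions were then read against this mix. Of 14344 genes tested, 27 were below the mix (0.188%) and 23 above it (0.16%) by limma at an adjusted p under 0.05, and 97.5% lay within 1 log2 unit of it on average. Of the 296 genes higher in parenchyma, 4 were below the mix and none above, and 256 lay within 1 log2 unit of it, a window about as wide as their own median difference. Their observed median difference was 1.14 on the log2 scale against 0.91 in the mix, and 87 of the 296 were below the mix in 3 of 3 heifers, against 1519 of the 14344. Above it in 3 of 3 heifers were 3140 of the 14344, and 1881 had an unadjusted p under 0.05 in either direction. Among the 708 genes lower in parenchyma that set no share, 2 were below and 2 above, and 690 lay within 1 log2 unit. Their observed median was -1.65 against -1.52. A missed threshold does not show that a gene followed the mix, since each test rests on 3 heifers. Without heifer 5 no gene was called by limma, without heifer 4 there were 121 and without heifer 3 there were 1346. With mean parenchyma and far stroma in place of each heifer's own, 6 departed, all below.

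A limma fit with the adipocyte level as a covariate called 0 genes between the regions (0%), with 977 of 14344 at an unadjusted p under 0.05 and a smallest adjusted p of 0.364. No other tool was run for this fit. The regions do not overlap in adipocyte level, so the covariate and the region can hardly be told apart. The median SE rose from 0.27 to 1.10, and the fit extrapolates between levels that no sample holds. Without the close stroma of heifer 3, 2 genes were called. The order of the close stroma samples gives a further description. In 73.4% of the 708 lower genes (520), heifer 3 was highest, then heifer 5, then heifer 4, which is the order of the adipocyte level and holds for 21.7% of all genes tested. The reverse order held for 38.9% of the higher genes (115), against 23.5% of all.

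**Figure D5:**
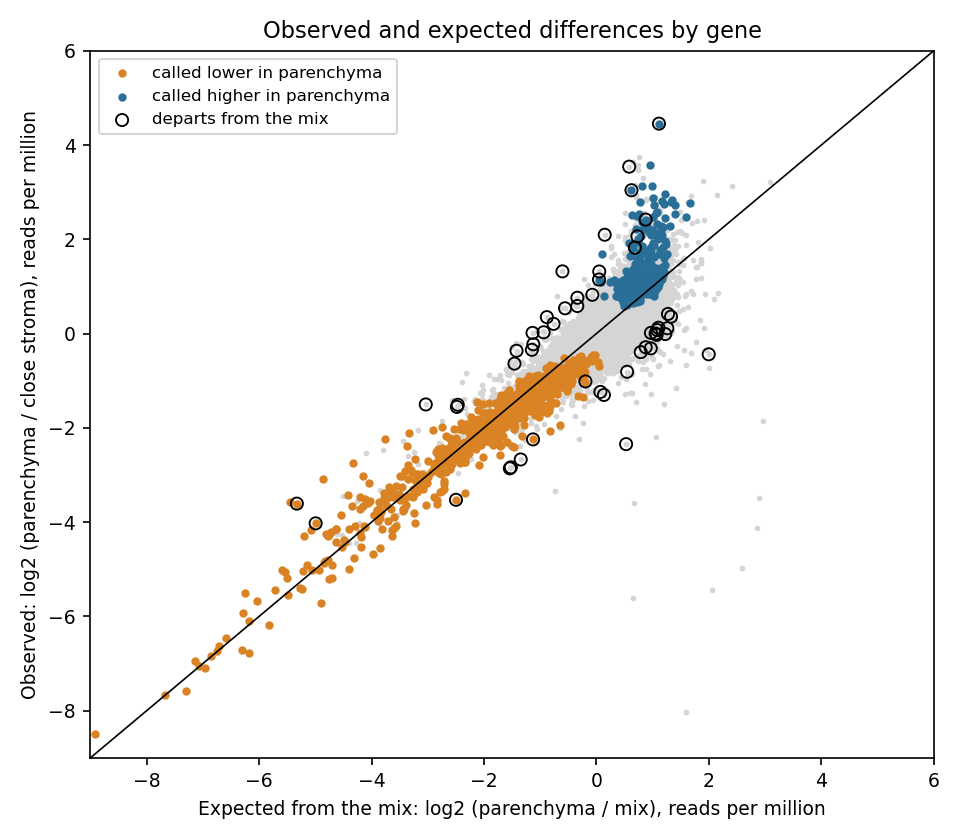
For each gene tested, the log2 ratio of parenchyma to the computed mix (x axis) and of parenchyma to observed close stroma (y axis), from mean CPM of heifers 3, 4 and 5 plus 0.1, with genes called between the regions in colour, genes called against the mix ringed and the line of equal values in black. By the mean departure over the 3 heifers, which the points do not plot, 690 of the 708 genes called lower are within 1 log2 unit of the mix. So are 97.5% of all genes tested. The ringed genes lie off the line, 27 above it with close stroma below the mix and 23 below it.

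Genes with less RNA in close stroma than the mix gives included glandular and connective tissue products. ENSBTAG00000047815 averaged 14.5 CPM in close stroma against 148 in the mix (log2 -3.07 ± 0.50, adjusted p = 0.0291), and MUCL1 2.74 against 15.1 (-2.46 ± 0.42). The transcript MGC151921 averaged 25.2 against 196 (-2.64 ± 0.27, adjusted p = 0.00602), although the parenchyma of heifer 3 held a normalised count of 13.0 and the other 3 parenchyma samples 2682 to 4655. KLK7, a protease of skin and other epithelia, averaged 5.83 against 22.8 (-2.16 ± 0.30). The WNT inhibitor SFRP4 stood at normalised counts of 160.2, 341 and 1306 in the parenchyma, 449.6, 134 and 180.2 in the close stroma and 1349, 1873 and 1227 in the far stroma of heifers 3, 4 and 5. It was thus lower in the close stroma of heifers 4 and 5 than in both regions around it (-2.03 ± 0.22, adjusted p = 0.00602). The matrix protein ECM1 (-1.81 ± 0.24) and the WNT-enhancing secreted factor RSPO3 (-1.66 ± 0.26) were below the mix while lying above parenchyma. RSPO3 was also among the genes lower in parenchyma, at 5.28, 17.1, 4.46 and 7.32 against 239, 27.2 and 153 (-3.58 ± 0.63, adjusted p = 0.00527).

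Fibroblast and matrix genes were among those below the mix. Of 21 genes of fibroblasts and fibrillar collagen, 5 were below the mix (COL1A1, COL1A2, COL3A1, FN1 and THY1) and none above, against 0.188% of all genes. Of these 21, 17 were below it in 3 of 3 heifers, against 1519 of all 14344. Their median departure was -0.59, against 0.08 over all genes. The higher far stroma share from the adipocyte genes in heifers 3 and 4 raises the mix for genes high in far stroma. The values of this list can thus partly restate that gap, and its median was not recomputed with shares set by the luminal genes. COL1A1 averaged 3105 CPM in close stroma against 6895 in the mix (-1.48 ± 0.23, adjusted p = 0.0291), and fibronectin FN1 567 against 1108 (-0.95 ± 0.15, adjusted p = 0.0291). CD248, a glycoprotein of stromal cells and pericytes, was both higher in parenchyma (1.27 ± 0.34, adjusted p = 0.0436) and below the mix (105 against 226 CPM, -1.17 ± 0.16). It was chosen after its values were seen, at 2791, 1864, 1568 and 2441 in parenchyma, 1570.4, 698 and 610.4 in close stroma and 1361 to 3154 in far stroma. IGFBP6, a binding protein with preference for IGF2, averaged 214 against 406 (-1.11 ± 0.19) and MFAP5, a microfibril protein in the list of fat cell progenitors, 257 against 453 (-0.88 ± 0.16). With shares set by the luminal genes, COL1A1 (adjusted p = 0.129), ECM1 (0.116), RSPO3 (0.164) and IGFBP6 (0.351) did not pass, while MGC151921, MUCL1, KLK7 and SFRP4 did. With mean parenchyma and far stroma as references none of these last 4 passed (adjusted p = 0.0553 to 0.108), and with a mix pseudocount of 1 CPM MGC151921 (0.0638) and MUCL1 (0.0842) did not.

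Genes above the mix included FOSB, KRT15 and ADAMDEC1. FOSB, a transcription factor of the immediate early class, stood at normalised counts of 180.5, 938 and 85.1 in parenchyma, 3491, 4269 and 732 in close stroma and 2092, 4163 and 440.3 in far stroma of heifers 3, 4 and 5. In each of these animals its close stroma value exceeded that of both other regions (1.52 ± 0.19 against the mix, adjusted p = 0.0164). Of the 20 immediate early genes, 5 were above the mix (FOSB, NR4A1, FOS, CYR61 and ATF3), against 0.16% of all genes. Above it in 3 of 3 heifers were 12, against 3140 of all 14344, and the median was 0.72. The keratin KRT15 of basal and progenitor cells averaged 479.6 CPM against 239 (1.48 ± 0.25), and the epithelial factor EHF 185 against 102 (1.03 ± 0.18). The medians of the luminal and basal lists were 0.55 and 0.53, and EHF and KRT15 were their members above the mix. The adipocyte genes set a higher far stroma share than the luminal genes did in heifers 3 and 4, so these positive medians partly restate that gap. EHF, a member of the luminal list, was not tested with shares set by that list. ADAMDEC1, a protease of macrophages and stroma, averaged 9.12 against 1.16 (2.64 ± 0.41), and the macrophage elastase MMP12 11.9 against 4.6 (1.49 ± 0.27). Of the 15 macrophage and myeloid genes none was called above the mix by limma, 1 was above and 6 below at an unadjusted p under 0.05, and the median was -0.10. Of the 17 milk and secretory genes, 10 were above the mix in 3 of 3 heifers, against 3140 of all 14344 genes. At an unadjusted p under 0.05, 10 were above it, against 1881 of all genes in either direction. The median of the list was 1.81, while limma called none after adjustment and no other tool was run. In CSN2 the departures of heifers 3, 4 and 5 were 2.97, -0.07 and 9.43, and in PAEP 3.09, 0.15 and 7.15. LTF, at 0.73, 0.48 and -0.45, and PIGR, at 1.72, -1.74 and -0.95, were below the mix in heifer 5. The gap between the shares in heifers 3 and 4 also bears on members of this list that are low in far stroma. The ribonuclease RNASE1 averaged 56.1 against 20.7 (1.49 ± 0.23) and the membrane protein SLITRK6 31.3 against 13.7 (1.36 ± 0.24). With shares set by the luminal genes, 9 genes in place of 23 were above the mix, and KRT15 (adjusted p = 0.0579), MMP12 (0.14) and SLITRK6 (0.0967) were no longer called, while FOSB, ADAMDEC1 and RNASE1 were. With mean parenchyma and far stroma as references FOSB (limma adjusted p = 0.269), ADAMDEC1 (0.0835) and RNASE1 (0.0948) were not called. Without a filter on low values ADAMDEC1 and RNASE1 were not called (0.0607 each), nor was ADAMDEC1 with a mix pseudocount of 1 CPM (0.0638). Of the 14 departures of genes under the rule for named genes, MUCL1, COL1A1 and IGFBP6 among them, none was called without heifer 5 (adjusted p = 0.339 to 0.522). Without heifer 4, MMP12 (adjusted p = 0.0614) and SLITRK6 (0.0866) were lost, and without heifer 3 all 14 were called.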

How the data were processed

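Poly A RNA of 11 mammary samples from heifers was sequenced. The authors deposited 1 table of normalised gene counts, a signal in which each sample's counts were divided by 1 size factor, per the file headers. Build ARS-UCD1.2 and the tools STAR, HTSeq, cutadapt and DESeq2 appear in the submitters' processing notes, without versions or roles. No source used here says whether strand was used. All values were within 0.01 of a whole number of reads times a step per sample. Division by that step gave the depth and the reads for edgeR and DESeq2.

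The main test was limma 3.58.1 with a trend (R 4.3.3) on log2(value + 1), as planned for normalised values, in 1 fit of 3 regions with no heifer block. Genes needed a mean of 10 or more in parenchyma or close stroma: ENSBTAG00000049808 at 10.02 was the nearest inside and ENSBTAG00000045772 at 9.9967 the nearest outside. P-values were adjusted by Benjamini-Hochberg over all 14361 genes tested, and errors are SE. In the mix test, limma compared log2((observed + 0.1)/(expected + 0.1)) in CPM with 0 over 3 heifers. Adipocyte genes set the shares and were not tested there.

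The numbers name animals and so pair the samples. Deviations from the region means correlated at 0.126, 0.386 and 0.13 within heifers 3, 4 and 5, and at -0.356 to 0.224 between different heifers. Alternatives used edgeR 4.0.16 (TMM or RLE), DESeq2 1.42.0, a heifer block, other pseudocounts and filters, and each sample left out. The steps were tested on simulated data.

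Named genes were the 8 per direction with the largest called difference (a symbol on 1 line, a mean of 50 or more in the higher region, no overlap), the 6 per direction with the largest called departure from the mix (5 CPM or more, the same sign in 3 of 3 heifers), 22 fixed genes and up to 3 members of each of the 27 lists with the smallest p. Other genes were chosen after their values were seen. Members and lists were chosen with earlier results of these data known. No sequence is printed, and the results of some genes are not reported here. Samples of a region are separate animals, so p-values of the main fit measure the spread between animals and dissections together. That fit treated samples of different regions from the same heifer as independent. P-values of the blocked fits and of the mix test rest on differences within heifers.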

Additional observations from a re-analysis of the deposited data

Results flagged for a closer look

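Of 121 sets of 4 samples examined, 7 held a sample whose gap to its nearest neighbour was above Dixon's 95% critical value as a share of the range of its set. Chance alone flags about 1 in 20 sets. In parenchyma, heifer 3 was apart from the other animals in CACNA1G (lowest, 230.9), CIDEC (lowest, 75.61), CIITA (highest, 857.76) and MGC151921 (lowest, 13.01 against 2682 to 4655). Heifer 4 was the lowest in parenchyma for FZD4 (206.8) and RAB3B (0), and heifer 1 the highest for ZNF423 (211.12). Leaving out the parenchyma sample that stands apart ended the call of CIITA between the regions, and left those of CACNA1G, CIDEC, FZD4, RAB3B and ZNF423.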

How the results depend on the processing

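With the heifer as a replicate block, 501 genes were higher. With parenchyma and close stroma alone, 622 were. The 6 paired samples with a replicate block gave 1767 calls in all, 752 of them higher and 131 of list members. DESeq2 gave 2038 calls, 839 higher and 1199 lower, with 132 of list members. The cause of these differences was not tested. Leaving out 1 sample gave 374 to 1226 calls, 52 to 337 higher, 322 to 889 lower and 42 to 81 list members, and 0 to 2 calls at equal adipocyte level. At that level the heifer block gave 0 calls too. Against the mix, leaving out a heifer gave 0 to 1346 calls, 0 to 347 below and 0 to 999 above. Shares set by the luminal genes gave 9 above. Without a replicate block (mean parenchyma and far stroma) there were 6 calls, 6 below and 0 above. Without a filter on low values there were 11, 7 below and 4 above. Shares set by both lists, chosen after seeing the data, gave 44 below. Pseudocount, filter, total scaling and edgeR left the counts between the regions within 1.5 times. Scaling to the library total moved the median of all genes to 0.12. Of 60 named calls between the regions, 35 held when any 1 sample was left out, and 24 of the 25 others were lost without the close stroma of heifer 3. In the alternatives that left out no sample, named genes called between the regions kept the call in 586 of 599 values and lost it in 13, and 88 values of uncalled genes passed. No called value changed sign. Close stroma has 3 samples from 3 heifers, and read depth was not varied.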

Other observations

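The genes of this section were chosen after their values were seen, and their calls were not recomputed without single samples. UVRAG (ENSBTAG00000016355), a gene of autophagy and DNA repair, was far lower in parenchyma, at 258, 290.3, 242 and 194 against 50782, 5734 and 16352 in close stroma and 31818 to 69298 in far stroma (-6.10 ± 0.55 SE, limma adjusted p = 3.98e-05). In the RefSeq order of genes it lies between DGAT2, an enzyme of triglyceride synthesis, and the ligand WNT11, whose difference did not pass (-1.07 ± 0.37, adjusted p = 0.103). The deposited data hold no values under the symbol DGAT2. Without knowledge of strand, reads of genes that overlap on opposite strands cannot be told apart. Whether UVRAG overlaps either neighbour was not examined. Whether reads of a neighbouring gene were counted for UVRAG was not tested. ENSBTAG00000020105, which has no symbol in the table, was also lower in parenchyma, at 16.6, 11.4, 24.1 and 16.5 against 7074, 1637 and 3526 (-7.61 ± 0.39, adjusted p = 4.21e-07).

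Some genes known from immune cells, outside the lists, were called higher in parenchyma. FCGR2B, the inhibitory Fc receptor of B and myeloid cells, stood at 8428, 3474, 3219 and 1506 against 1016, 473 and 627 (2.36 ± 0.53, adjusted p = 0.0188). TBX21, a factor of type 1 T cells and NK cells (1.197 ± 0.28, adjusted p = 0.0246), the inhibitory T cell receptor PDCD1 (1.04 ± 0.25, 0.0232), the homing integrin ITGB7 (1.19 ± 0.21, 0.00557) and the shared cytokine receptor chain IL2RG (0.85 ± 0.19, 0.0165) were also called.

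Some transcription factors were called higher too. ETV4, which acts downstream of FGF receptors, stood at 71.6, 109.8, 198 and 129 against 18.2, 48.8 and 29.9 (1.96 ± 0.43, adjusted p = 0.0173). FOXA3 (1.94 ± 0.45, adjusted p = 0.0224), the mitotic factor FOXM1 (1.75 ± 0.46, 0.0394) and SOX10 (0.95 ± 0.20, 0.0142), known from Schwann cells and from mammary epithelium, also passed. ENSBTAG00000047700, without a symbol, stood at 2930.1, 1585, 2848 and 5139 against 157, 758 and 863 (2.61 ± 0.56, adjusted p = 0.0144). Genes without a symbol made up 8.11% of the genes called higher in parenchyma, against 8.17% of those tested.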
